A study of Danio rerio with 18 samples.

Results

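ATAC-seq peak lists of zebrafish liver cells were searched for regions that had a peak after injury in every cell type studied and in no control list. In ATAC-seq a transposase cuts DNA that is free of nucleosomes, and a peak is a stretch where these cuts pile up. The peaks of all 6 deposited lists were merged into regions, which were joined when they overlapped by at least 1 bp. Members were selected on the peak calls themselves. A region was kept if it held a peak of hepatocytes (HEPs), hepatic stellate cells (HSCs) and endothelial cells (ECs) from thioacetamide (TAA)-treated fish, and no peak of any of the 3 control lists. This gave 838 members of 92012 merged regions, or 0.911% (95% Wilson interval 0.851 to 0.974). The calls that chose the members are given as a description without a test, and intervals cover counting error over regions only.

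All fish were adult females of the AB background. HEPs were sorted from Tg(fabp10a:dsRed), HSCs from Tg(hand2:EGFP) and ECs from Tg(kdrl:ras-mCherry), so that each sort rested on the activity of 1 promoter, and effects of cell type and of line cannot be told apart. For each cell type, 1 group of fish received TAA at 500 mg/kg and 1 group received control injections. The paper names both sterile water and saline for these controls. Both groups were injected into the abdomen 6 times within 2 weeks. Each of the 18 libraries was made from 60000 cells, and 3 libraries made up a group. Which fish went into which library is not given in the sources used here. Fewer control fish than control libraries are stated, so some control libraries must share fish if the stated numbers cover all of them. Some TAA-treated fish died during the treatment while all control fish lived, so the TAA libraries come from survivors.

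Each group had a single peak list, called by the authors on the combined p-values of its 3 libraries. The spread between libraries can therefore not be given for any value below. The lists held between 41563 peaks (HEP control) and 61245 peaks (HSC TAA), on 25 chromosomes, and the TAA list was the longer one in each cell type. The lists give no read depth, and a region without a peak in a list passed no threshold there but is not thereby shown to be closed. The EC control list stood apart from the rest, since 15874 regions, 17.3% of all, had a peak in this list alone. If it was left out of the rule, 1072 regions qualified. Sorted cells were measured in bulk, and a region that is open in fewer cells cannot be told apart from one that is less open in each cell. The labelled cell types could not be checked at the promoters of their defining genes, because no gene annotation or genome sequence of the build of the files (GRCz11) was used here. Regions are accordingly given by position, without gene names or sequence.

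As background, TAA is converted by liver enzymes into reactive products that damage hepatocytes. Stellate cells then take on a matrix-producing state, and sinusoidal endothelial cells change as well. Accessible regions include promoters and enhancers. Some are shared by most tissues and others are used by a single cell type, and new sites can become accessible when signals such as stress kinases activate transcription factors that bind there.

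To place the members among all regions, the combinations of lists were counted. The HEP TAA list had a peak and the HEP control list none in 9.56% of all regions (8796 regions). The same held for 16.3% in HSCs (15002) and 29.8% in ECs (27390). Members made up 9.53% of these HEP regions, 5.59% of the HSC regions and 3.06% of the EC regions. When all lists were cut to 41563 peaks by score, such regions numbered 6897 in HEPs, 7110 in HSCs and 19891 in ECs. The difference between HEPs and HSCs thus depended on the length of the lists. With whole lists, members were thus a small part of what each cell type gained by its own lists, and the smallest part in ECs. Of the 27390 EC regions, 10377 had a peak in every list except the EC control list. The EC values therefore rest in large part on the absence of peaks from that list. Among the regions without any control peak, 5.33% (838 of 15723, interval 4.99 to 5.69) were members. HEPs, which had the shortest of the 3 TAA lists, set the limit here. Of the 2093 regions with a HEP TAA peak and no control peak of any cell type, 40.0% (38.0 to 42.2) were members, whereas the shares were 7.30% of 11487 for HSCs and 10.1% of 8301 for ECs. In other words, HEP regions of this kind were often also present in the HSC and EC TAA lists, while most of those of HSCs and ECs were missing from the HEP TAA list. The neighbouring combinations held 3918 regions with TAA peaks in HSCs and ECs only, 385 in HEPs and HSCs only and 179 in HEPs and ECs only.

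Seen from the TAA side, members were the small end of a large shared set. A peak in all 3 TAA lists was found in 37141 regions. Of these, 56.8% had a peak in all 3 control lists, 32.9% in 2, 8.03% in 1, and 2.26% (2.11 to 2.41) in none. With whole lists, the control samples gave nearly the same share in the reverse direction. Of the 25216 regions with a peak in all 3 control lists, 581 had no TAA peak in any cell type, which is 2.304% (2.13 to 2.50), and both intervals overlapped. As a share of all regions, these reverse regions were fewer, 0.631% (0.582 to 0.685) compared with 0.911%.

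Since the TAA lists were longer, the count was repeated after all lists were cut to 41563 peaks by score, as many as the HEP control list held. This gave 627 regions by the members' rule and 611 by the reverse rule, compared with 838 and 581 for the whole lists. The excess of the members over the reverse regions, 1.44 times with whole lists, was 1.03 times at equal length. It was 1.71 times with the best 20000 peaks of each list (282 and 165 regions) and 2.35 times with the better 50% of each list (387 and 165). The size of the excess therefore depended on where the lists were cut. So did the shares. At equal length, members were 1.97% of the regions in all 3 TAA lists, and reverse regions 2.76% of those in all 3 control lists. These shares were 1.82% and 1.63% with the best 20000 peaks, and 1.98% and 1.38% with the better 50% of each list. The identity of the members depended on the cut even more. Only 220 of the 838 members (26.3%) were found again at equal length and 0 with the best 20000 peaks, so that the counts at these lengths come mostly or wholly from other regions.

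The 8 combinations with a peak in exactly 1 list of each cell type were then set side by side. Members (TAA in all 3) were the second most frequent of these with 838 regions. The combination of HEP TAA with HSC control and EC control was more frequent, with 905 regions. The reverse regions (581) and the combination of HEP control with HSC TAA and EC TAA (567) followed. In the other 4 combinations HSCs and ECs were on opposite sides, and these held only 72 to 121 regions. Whole lists thus gave many regions in which HSCs and ECs shared the treatment, whichever HEP list went with them. At equal length the order among the 4 frequent combinations was different. Members came first (627), ahead of the reverse regions (611), HEP control with HSC and EC TAA (560) and HEP TAA with HSC and EC control (501). With the best 20000 peaks of each list, members (282) came after HEP control with HSC and EC TAA (294). The combinations with HSCs and ECs on opposite sides held 86 to 197 regions at equal length. With the best 20000 peaks they held 38 to 126, compared with 165 reverse regions, so they were less clearly set apart there.

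**Figure D1:**
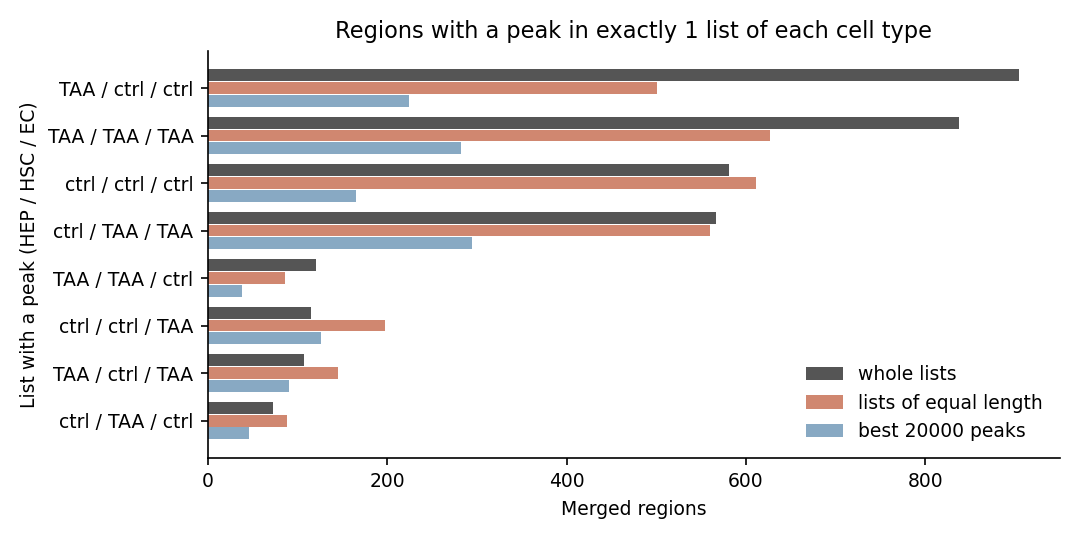
Number of merged regions (x axis) with a peak in exactly 1 list of each cell type, for the 8 possible combinations (y axis, HEP, HSC and EC in this order). Bars show whole lists, lists of equal length (41563 peaks each) and the best 20000 peaks of each list; members (TAA / TAA / TAA) count 838, 627 and 282.

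Which control list kept other regions out of the set was asked by leaving out each list in turn. Without the HSC control list, 3097 regions qualified, compared with 1335 without the HEP control list and 1072 without the EC control list. The HSC control list was thus the one that excluded the most regions, although the EC control list held the most regions found in no other list. It was the longest control list, with 55293 peaks in HSCs compared with 51257 in ECs and 41563 in HEPs. On the side of TAA, the HEP TAA list limited the set. Without it 4756 regions qualified, and without the HSC TAA or the EC TAA list the numbers were 1024 and 1230. The HEP TAA list was also the shortest, with 44649 peaks compared with 61245 in HSCs and 54209 in ECs. Counts with a list left out come from whole lists and were not repeated at equal length. The regions that missed the set by a peak in the HSC control list alone, 2256 in number, were mostly weak there, with a median percentile of 29.7 in the HSC control list. By percentile is meant the share of peaks of a list with a lower score, so that the median over all peaks of a list is 50 by construction.

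Members were weak peaks in every list. The score of a peak is the authors' value, a q-value on a negative log10 scale multiplied by 10, and the lists run from about 50 to a cap of 3240. Because scores depend on depth, they were compared between lists only as percentiles. In the HEP TAA list the member peaks had scores from 59 to 501 with a median of 151, while the median over that whole list was 329. In the HSC TAA list they had scores from 62 to 1468 with a median of 240, compared with 439 over the list. In the EC TAA list they had scores from 71 to 1192 with a median of 224, compared with 439 over the list. No member reached the best 10% of any list. The median percentile was 16.1 for HEPs, 30.01 for HSCs and 25.4 for ECs. Only 17 members in HEPs, 98 in HSCs and 91 in ECs lay in the better 50% of the list. In HEPs, 267 members (31.9%) lay in the last 10% of the list, compared with 88 (10.5%) in HSCs and 154 (18.4%) in ECs.

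**Figure D2:**
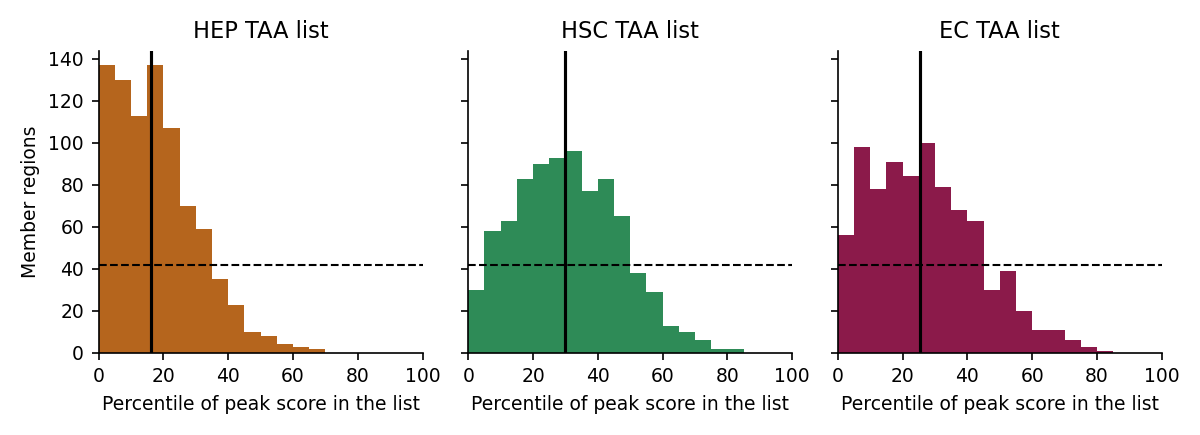
Number of members (y axis) by percentile of their peak score within the HEP, HSC and EC TAA lists (x axis, 0 is the weakest peak of the list). The solid line marks the median (16.1, 30.01 and 25.4), and the dashed line marks the height if the 838 members were spread evenly over the list.

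Regions with TAA peaks in fewer cell types and no control peak were weaker still. The median percentile was 24.2 in HSCs and 19.4 in ECs for regions with TAA peaks in these 2 cell types only. For regions with a TAA peak in 1 list only, HEPs gave 9.65, HSCs 11.7 and ECs 10.2. Regions with a peak in all 6 lists stood at the other end, with median percentiles of 69.4 in HEPs, 77.2 in HSCs and 72.6 in ECs after TAA. The reverse regions were also weak in the HEP control list (median percentile 11.3) and the HSC control list (23.9), but not in the EC control list, where their median percentile was 60.3. This was not particular to the reverse regions, since regions with HEP TAA, HSC control and EC control peaks only had a median percentile of 55.9 in the EC control list. Members had no cell type in which they were strong.

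To see where along the range of strength members occurred, the 37141 regions with a peak in all 3 TAA lists were ordered by the mean of their 3 percentiles and divided into 10 deciles. In the weakest decile, up to a mean percentile of 29.3, 558 of 3715 regions were members (15.0%, 13.9 to 16.2). In the next 4 deciles the share was 4.93%, 1.83%, 0.619% and 0.135%. Decile 6 held 1 member, and the 4 strongest deciles held 0 of 14856 regions, which allows a share of up to 0.0202% (3 counts over the total, not a Wilson bound). The 2 weakest deciles together held 741 members, 88.4% of all. Control lists gave the same course in the reverse direction, with 11.9% (10.7 to 13.3) in the weakest decile (up to a mean percentile of 32.6), 6.74% in the next and 0 regions from decile 6 on. Shares were higher for the TAA side in decile 1 and higher for the control side in deciles 2 and 3. The deciles were set within each side, so their limits differ. In addition, the mean percentile of the reverse regions includes their EC control peaks. These had a median percentile of 60.3, compared with 11.3 in the HEP and 23.9 in the HSC control list. Nothing is therefore concluded from the difference between the sides.

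**Figure D3:**
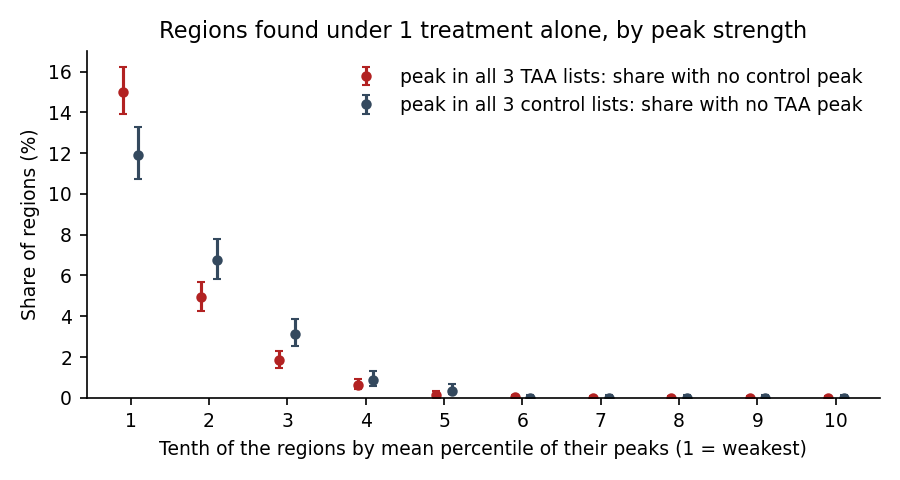
Share of regions (y axis, percent, with 95% Wilson intervals) without any peak under the other treatment, by decile of peak strength (x axis, 1 is the weakest). Members are the red points, which go from 15.0% in the weakest decile to 0 in the 4 strongest; the dark points give the reverse regions, from 11.9% to 0.

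Some members ranked beyond the length of the control list of the same cell type, most often in HEPs. In HEPs, 185 members (22.1%) ranked beyond place 41563, the length of the HEP control list, while 6.91% of all HEP TAA peaks did. In HSCs 82 members (9.79%) ranked beyond the length of the HSC control list, and in ECs 61 (7.28%), where all peaks gave 9.64% and 5.42%. In all, 268 members (32.0%) had at least 1 peak that ranked beyond the length of the control list of its cell type. A difference in list length can come from read depth, which the lists do not give, and its part in these calls was not tested beyond the recount at equal length.

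Members differed among themselves in which cell type was strongest. The highest percentile was that of HSCs in 431 members, of ECs in 291 and of HEPs in 116. The HEP percentile was below both others in 500 members (59.7%). In 126 members the 3 percentiles lay within 10 points of each other, and in 247 they spanned more than 30 points. Across the 838 members, the rank correlation of percentiles (Spearman's rho) was 0.409 between HSCs and ECs, 0.162 between HEPs and HSCs and 0.172 between HEPs and ECs. For the 21112 regions in all 6 lists, the values were 0.918, 0.878 and 0.865. The members cover a narrower range of scores than the regions in all 6 lists, and base composition may be shared across lists. Whether either plays a part was not tested, so these coefficients describe the lists only.

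The extremes of each list, picked out after their values were seen, show how unequal a member can be. The member with the best HEP peak was at chr6:54746214-54746393. Its score of 501 ranked it 15265 in the HEP TAA list (percentile 65.8), whereas its HSC and EC peaks stood at percentiles of 6.17 and 10.6. The best HSC peak was at chr9:45483655-45483934, with a score of 1468 and rank 9454 (percentile 84.6), against percentiles of 17.0 in HEPs and 43.1 in ECs. The best EC peak was at chr8:49882166-49882363, with a score of 1192 and rank 10205 (percentile 81.2), against 30.5 in HEPs and 52.7 in HSCs. In each case a peak from the better 50% of 1 list was combined with a much lower rank in at least 1 other.

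The 10 members with the highest mean percentile are given one by one, in this order. The first was at chr14:30172015-30172258. The HEP peak had a score of 219, the HSC peak 1176 and the EC peak 1126, at percentiles of 33.3, 79.1 and 79.6. It was a site of nearly equal rank in HSCs and ECs that was much weaker in HEPs, and its 3 summits lay within 11 bp. The second was at chr16:43081-43657, the widest member, near the start of its chromosome. Its scores were 244 in HEPs, 713 in HSCs and 942 in ECs (percentiles 38.0, 65.1 and 74.7).

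The third, at chr4:116140-116286, was the most even of the 10. Its scores were 392 in HEPs, 580 in HSCs and 586 in ECs, with percentiles of 56.9, 59.0 and 59.9 and summits within 4 bp. It was the only member of the 838 in the better 50% of all 3 TAA lists, and therefore the single region that remained when the better 50% of each TAA list was set against the whole control lists. Its nearest control peak, of ECs, lay 1985 bp away. For the reverse rule, the same demand on the control lists also left 1 region.

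The fourth member, at chr12:25101057-25101295, was strong in HSCs (score 1308, percentile 81.8) and ECs (1043, 77.5) and low in the HEP list (150, 15.9). The fifth, at chr21:631999-632399, had scores of 273 in HEPs, 609 in HSCs and 810 in ECs. The sixth, at chr3:23353897-23354067, had 266, 798 and 587 in the same order. HEPs were again the weakest list in these 3 members, with percentiles of 15.9, 42.6 and 41.6.

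The seventh was the site on chromosome 8 with the best EC peak, described above. The eighth, at chr20:38150840-38151122, had scores of 204 in HEPs, 732 in HSCs and 757 in ECs, and no control peak of any cell type within 50 kb (nearest at 50412 bp). The ninth, at chr15:29244064-29244220, had 184, 784 and 819. The last of the 10, at chr3:58520187-58520465, differed from the others, since its HSC peak was the weakest. Its scores were 465 in HEPs (percentile 63.1), 233 in HSCs (29.1) and 804 in ECs (69.9).

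At the other end of the order, the weakest member was at chr19:41331446-41331626. Its scores were 72 in HEPs, 87 in HSCs and 76 in ECs, at percentiles of 0.385, 2.18 and 0.518. Over all members the mean percentile ranged from 1.03 to 64.0 with a median of 24.5, and 169 members lay under percentile 25 in all 3 lists.

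The peaks of a member lay close together in the 3 cell types, which follows in part from the demand that they overlap. Exactly 1 peak of each TAA list made up the region in 835 of 838 members. The 3 summits lay within a median of 25 bp (quartiles 11 and 44), and within 50 bp in 667 members (79.6%). Peaks of the 3 lists had a median of 104 bp in common, and in 2 members they had no base in common and were joined in a chain. Summits were closer in regions with a peak in all 6 lists (median 13 bp), and wider apart in the reverse regions (36 bp). Regions with a TAA peak in all 3 cell types and a peak in 1 control list gave values close to the members, with medians of 20 bp (HSC control), 24 bp (HEP control) and 19 bp (EC control).

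Members lay between other sets in width. The median width of the merged region was 175 bp (quartiles 153 and 208), compared with 192 bp over all regions, 240 bp for regions in all 6 lists and 215 bp for the reverse regions. Regions with TAA peaks in fewer cell types and no control peak were narrower, with medians of 153 to 156 bp for peaks in 2 cell types and 112 to 119 bp for peaks in 1. The peaks themselves had median widths of 121 bp in HEPs, 154 bp in HSCs and 152 bp in ECs, where the whole lists had 172, 182 and 184 bp. In 546 members (65.2%) the HEP peak was the narrowest of the 3, and in 466 it lay wholly inside the HSC peak. Width and score are not independent measures, because both come from the stretch over which a peak passes the threshold.

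The rule turns on whether a control peak overlaps, so the distance to the nearest control peak of any cell type was measured. It had a median of 3745 bp (quartiles 1555 and 9114). Within 500 bp lay 109 members (13.0%, interval 10.9 to 15.5), and 729 remained without them. Members did not stand out by this share among the sets with TAA peaks and no control peak. The highest share was 18.9% (17.7 to 20.2), for regions with TAA peaks from HSCs and ECs only. The lowest was 11.7% (8.85 to 15.3), for the pair of HEPs and HSCs, and the pair of HEPs and ECs gave 14.5%. Regions with a single TAA peak list had 12.3% (HEP list), 16.9% (HSC list) and 13.1% (EC list). Of the reverse regions, 10.3% (8.11 to 13.1) lay within 500 bp of a TAA peak. Most members thus lay well apart from any control peak. Among the 3 control lists, a peak within 500 bp was found for 69 members in HEPs, 88 in HSCs and 70 in ECs, and for 42 in all 3.

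Few regions lay close to the limit of 1 bp. Just inside were the members at chr18:8613078-8613279, with a control peak 6 bp away, at chr17:16404626-16404790 (19 bp) and at chr17:41142729-41142856 (38 bp). Just outside were chr5:14438924-14439268, where a control peak overlapped a TAA peak by 1 bp, and chr22:655218-655534, where it did so by 22 bp. In all, 3 members had a control peak within 50 bp, and 6 of the 36303 regions with a peak in all 3 TAA lists and at least 1 control list were kept out by an overlap of at most 50 bp.

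**Figure D4:**
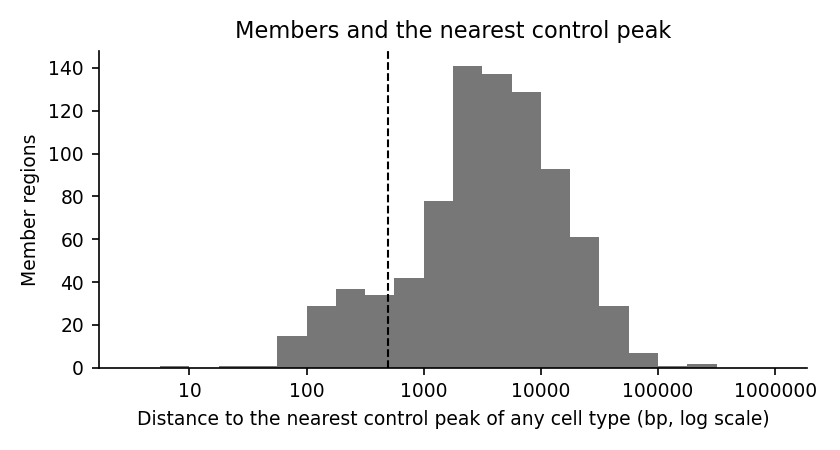
Number of members (y axis) by distance to the nearest control peak of any cell type (x axis, bp, log scale). The dashed line marks 500 bp, within which 109 of the 838 members lie; the median is 3745 bp.

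Members were found on all 25 chromosomes, with 18 (chromosome 10) to 55 (chromosome 7) on each. As a share of the regions of the chromosome they ranged from 0.576% on chromosome 10 to 1.25% on chromosome 16. The interval held the share over all chromosomes, 0.911%, on 22 of 25 chromosomes. The exceptions were chromosome 9 (0.578%, 0.378 to 0.882), chromosome 10 (0.576%, 0.365 to 0.909) and chromosome 16 (1.25%, 0.9504 to 1.64). With whole lists, members outnumbered the reverse regions on 21 chromosomes, with 1 tie. This splits the excess over all chromosomes (838 and 581 regions), which was small at equal length (627 and 611). Within 500 kb of a chromosome end, taken as the first base or the last peak, lay 40 members (4.77%, 3.53 to 6.44), compared with 3.11% of all regions and 3.61% (2.38 to 5.46) of the reverse regions.

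**Figure D5:**
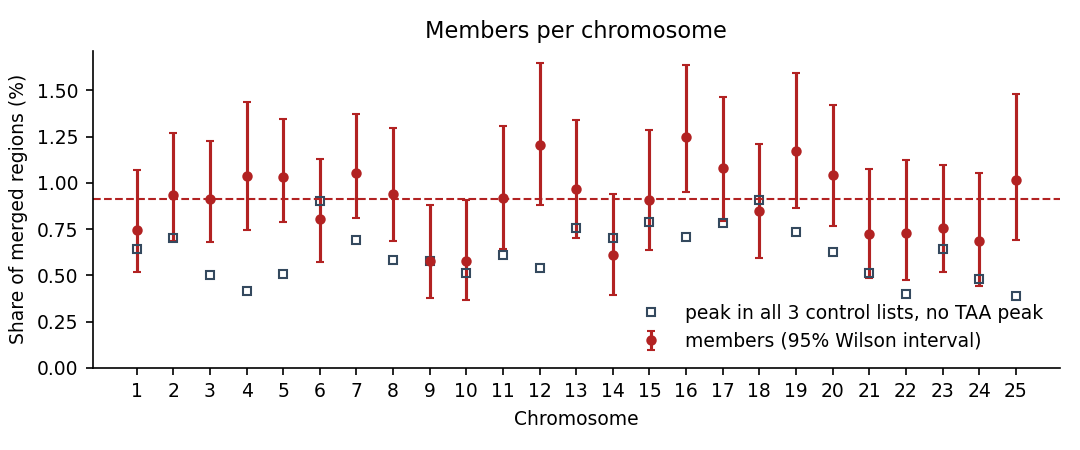
Members as a share of the merged regions of each chromosome (y axis, percent; red points with 95% Wilson intervals) on the 25 chromosomes (x axis). The dashed line is the share over all chromosomes (0.911%); open squares show regions with a peak in all 3 control lists and no TAA peak.

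Members were mostly scattered. Consecutive members on a chromosome were a median of 899053 bp apart, and 88 of 813 such gaps were within 100 kb. The nearest other region of a member was itself a member in 5 cases (0.597%), compared with 0.917% over all regions. It had no control peak in 19.0% of cases (16.5 to 21.8), compared with 17.0% over all regions, and it was in all 6 lists in 22.7% (19.97 to 25.6), compared with 23.6%. A nearest region without a TAA peak was less frequent, with 19.7% (17.1 to 22.5), than over all regions, with 23.3%, which lies above the interval. This was not particular to members, since regions with TAA peaks in HSCs and ECs only had 16.05% (14.9 to 17.2).

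Windows of 100 kb with at least 3 members numbered 6 and held 20 members. The window with the most members per base was on chromosome 16 from 43528783 to 43575817, where 4 of 13 regions were members and 6 had no control peak. Its members at chr16:43528783-43529001 and chr16:43575650-43575817 had HSC scores of 316 and 382, and the members between them had 186 and 152. On chromosome 17, from 9936403 to 10025350, 4 of 18 regions were members. These were led by chr17:9936403-9936712, with scores of 105 in HEPs, 418 in HSCs and 485 in ECs. The other windows had 3 members each, on chromosomes 5, 7 (2 windows) and 20. The one on chromosome 5 had the highest share of members, 3 of 8 regions. On chromosome 7 the window from 53418395 to 53480463 was led by ECs, with EC percentiles of 49.55, 62.49 and 56.95. The HSC percentiles there were 22.7, 44.6 and 26.9, and the HEP percentiles 8.01, 15.3 and 7.03. None of the 20 members in these windows was among the 10 with the highest mean percentile, and members of 1 window may belong to the same locus.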

How the data were processed

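ATAC-seq reads (18 libraries, 6 groups of 3, grouped by their titles) were trimmed by the authors with cutadapt 1.18 (versions from the submitters' processing notes) and aligned to GRCz11 with Bowtie2 2.3.4.3. Short, nucleosome-free fragments were kept and shifted for the transposase. With MACS2 2.1.0.2 a track of p-values was made for each replicate. For each group the tracks of its 3 replicates were joined by Fisher's method and corrected for multiple testing, and peaks were called on the result. Peaks over low-complexity sequence were dropped with bedtools 2.27.1. The deposited peak score is a whole number, the negative log10 of a q-value multiplied by 10, as its values show. Other deposited values were the start, end and summit of each peak, while 3 columns were 0 throughout. The lists give no read depth, and lists of single libraries were not among the files used here, so that no test across replicates was made.

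Lists were merged in Python 3.11.15 with pandas 2.3.3 (1 bp or more joins peaks), after the code had been tested on simulated data. Percentiles are within a list, ties at their mean rank, and the best peak of a list stands for a region. Shares have 95% Wilson intervals (SciPy 1.17.1). Coordinates count from 1. The members, lists of alternatives and rules were chosen with earlier results of these data known. Members were named by the highest mean percentile over the 3 TAA lists (first 10) and windows of 100 kb by at least 3 members. The best member of each list and the most isolated members were picked out after their values were seen. Alternatives were shorter lists, joined or distant peaks and each list left out. Positions against genes, motifs and gene lists were planned but not run, since no GRCz11 annotation or sequence was used here, and cell type markers were not checked for the same reason.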

Additional observations from a re-analysis of the deposited data

How the results depend on the processing

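No paired analysis was possible because each group had 1 peak list made from its 3 replicates together. Of 64 alternative values for 9 results, 27 stayed within 1.5 times the reported count or inside the 95% interval of the reported median, and 37 did not. The 27 include the values for numbered chromosomes alone, which could not differ because no peak lay elsewhere. The whole TAA lists against the better 50% of the control lists, the lists left out and the recounts of reverse regions were chosen after seeing the data. The count of members (838) was 627 at equal length, 819 with peaks joined up to 100 bp apart and 729 without a control peak within 500 bp. Asking for 50% of both peaks in common gave 747, and comparing HEP TAA peaks without merging gave 857. It was 282 with the best 20000 peaks, 387 with the better 50% of each list, 1 with the better 50% of TAA lists against whole control lists and 9362 in the opposite case. It was 4756, 1335 and 3097 without the HEP TAA, HEP control and HSC control lists.

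Cutting the lists removes weak peaks by construction, so the median percentiles within the whole lists (16.1, 30.01 and 25.4 in HEPs, HSCs and ECs) became 23.3, 45.3 and 40.7 at equal length, 62.9, 74.4 and 73.3 with the best 20000 peaks, 56.9, 64.2 and 63.5 with the better 50%, and 56.9, 59.0 and 59.9 for the 1 region left with the better 50% of TAA lists. HEPs were lowest in each setting. At equal length and with the best 20000 peaks the cut itself favours this order, so nothing is concluded from it there. The percentiles refer to the whole lists, so the cut leaves a lower floor in the shorter HEP TAA list. That list held 44649 peaks, compared with 61245 in the HSC and 54209 in the EC TAA list. Regions with a TAA peak and no control peak of the same cell type were 6897 in HEPs, 7110 in HSCs and 19891 in ECs at equal length. With the best 20000 peaks they were 3101, 3133 and 9873 in HEPs, HSCs and ECs, with the better 50% of each list 4162, 6472 and 13656, and with the better 50% of TAA lists alone 417, 786 and 9263. All peaks lay on numbered chromosomes. Leaving out single replicates was not possible for the reason given first, and the analyses by gene position, sequence and gene list were not run for lack of a GRCz11 annotation.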

Other observations

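A few members, picked out after their values were seen, stood far from any control peak. In 14 of 838 members no control peak of any cell type lay within 50 kb. The farthest was chr15:13059177-13059444, with 299243 bp to the nearest control peak, followed by chr13:41659870-41660099 with 221589 bp and chr14:32128738-32128893 with 118025 bp. Distances of this size were also found for regions with TAA peaks in HSCs and ECs only, where 70 of 3918 had no control peak within 50 kb and the farthest lay 304749 bp away.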
